A study of Mus musculus with 24 samples.

Results

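The heart and the skeletal muscle of the same 3 wild-type (WT) mice, called D, E and F, were compared across the whole transcriptome. The comparison took the 3 heart arrays and the 3 muscle arrays of these animals, 6 of the 24 arrays of the series, and paired each heart with the muscle of its own mouse. The series holds liver, brain, heart and skeletal muscle of 3 WT mice and of 3 mice with a knockin (KI) of an amino-acid substitution in Rap1, called A, B and C, with 1 array for each tissue of each mouse. All mice were female, from a line back-crossed to C57BL6 (given as C57BL/6N in the methods), and were 15 months old except mice C and F, which were 14 months old. No mouse received a treatment that the labels name. The labels name neither the muscle that was taken nor the parts of the heart, and a whole piece of tissue also holds vessels, connective tissue, blood and fat. Gene levels therefore belong to the tissue, and fewer cells of a type and less RNA per cell cannot be told apart in them.

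Heart and skeletal muscle are the striated muscles of the body, and both contract through sarcomeres built from myosin, actin and their regulators. The heart beats without rest under its own pacemaker, releases calcium when calcium enters through a surface channel, joins its cells end to end at intercalated discs and burns mostly fatty acids. Skeletal muscle is made of long fused fibres that fire only on command of a motor nerve, couples its surface channel physically to the calcium release channel, and in fast fibres draws on glycogen and creatine phosphate. Many sarcomere and calcium proteins exist as a cardiac and a skeletal gene, and slow skeletal fibres share several of theirs with the ventricle.

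A level is the log2 processed signal of a gene's probe minus the 75th percentile of its array, so that 0 is that percentile. A difference is heart minus muscle on this scale, taken within each mouse and averaged over the 3 mice, with the standard error (SE) and the adjusted p of a paired limma fit across all genes. A gene was tested when every heart or every muscle measured its probe well above background, and it passed at an adjusted p under 0.05. Across genes, arrays correlated by 0.988 to 0.993 among hearts, by 0.975 to 0.982 among muscles, and by 0.843 to 0.868 between the tissues. Of 14879 genes tested, 53.2% passed, 27.1% as higher in heart and 26.2% as higher in muscle, and the 3 hearts did not overlap the 3 muscles for 68.8%. The balance of directions moved with the processing, with 4521 genes higher in heart and 3291 in muscle under quantile scaling, 3670 and 4576 under normexp correction, and 3503 and 5585 with no filter on dim probes. The difference reached 1 (log2), a doubling of the ratio, in 31.4% of tested genes that passed, 17.7% towards heart and 13.7% towards muscle. The median difference over all tested genes was 0.00, so directions below are relative to a scale on which the tissues balance. Of the 7919 genes that passed, 7911 had the same sign in all 3 mice, a count that the test on these same differences favours. Slide 3 held heart F and all the muscle arrays while hearts D and E lay on slide 2, and heart F minus the mean of the muscles on its own slide had the same sign for 7917 of those genes. The fit that chose those genes used these same arrays, so this agreement cannot tell tissue from slide. With slide as a block in an unpaired fit, 5570 of the 7919 passed with the same sign.

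Where a tissue had no array on which a gene stood well above background, only a lower limit of its difference is known. It is given as "at least N-fold", the brighter tissue's mean against the lowest signal well above background on each array of the dimmer tissue, or the gene's own value there where that was higher.

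The labels were first checked with a myosin heavy chain of each tissue. Myh6, the main cardiac myosin heavy chain of the adult mouse, had levels of 8.70, 8.81 and 8.99 in the hearts of mice D, E and F and of -0.01, -0.94 and 1.18 in their muscles. Myh4, the myosin of the fastest skeletal fibres, had levels of 9.69, 9.90 and 9.51 in the muscles and was not well above background in any heart. Each of the 6 arrays carried the marker of its labelled tissue. Myh6 differed by 8.76 (SE 0.39, adjusted p = 0.00034), and Myh4 was at least 34739-fold higher in muscle (adjusted p = 4.4e-05).

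Genes that exist as a cardiac and a skeletal counterpart separated the tissues in nearly every case on the skeletal side and less completely on the cardiac side. Of 26 such pairs, 20 cardiac members were higher in heart, 1 was higher in muscle and 5 did not pass. Of the 26 skeletal members, 24 were higher in muscle, 0 were higher in heart and 2 did not pass. In 18 pairs both members passed in the direction of their name. The median difference was 3.49 for the cardiac members and -6.10 for the skeletal members, against 0.00 over all genes. The cardiac member that went to muscle was Jph2, a junctophilin that holds the surface membrane near the calcium store, with a difference of -1.06 (SE 0.21, adjusted p = 0.015). The 5 cardiac members that did not pass were Myl3, Tmod1, Actn2, Eno1 and Ckmt2, and the 2 skeletal members were Lmod3 and Slc8a3.

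**Figure D1:**
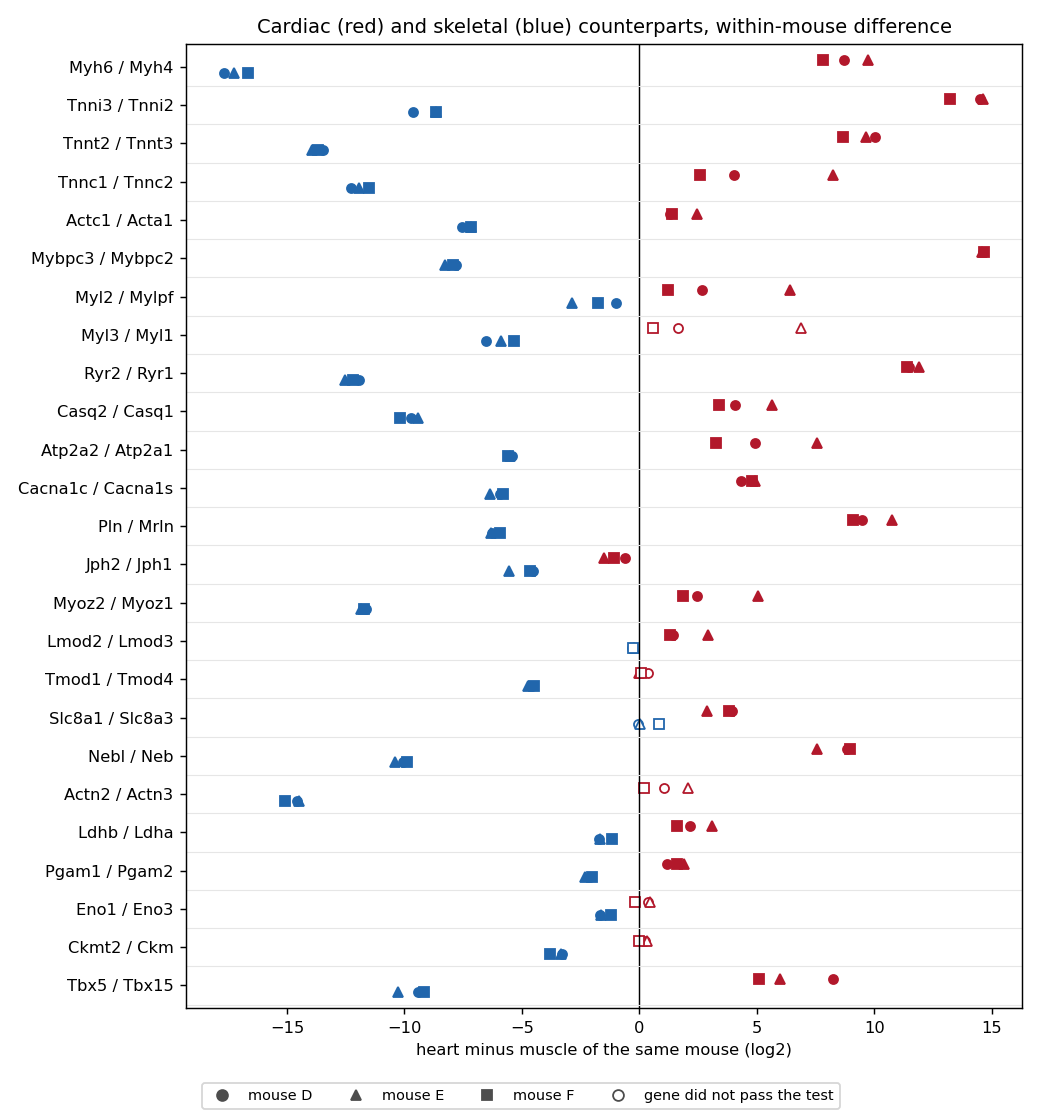
Each row is a cardiac gene (red) and its skeletal counterpart (blue), and each symbol is the measured heart minus muscle difference (log2) within mouse D (circle), E (triangle) or F (square). Filled symbols mark genes that passed the test, and red symbols lie to the right of 0 and blue symbols to the left except for Jph2 and the genes that did not pass. For genes below background in 1 tissue the plotted value is not a limit, and 1 of the 26 pairs is not drawn.

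The cardiac contractile genes were higher in heart with different completeness. Of 11 tested members of this list (Mybphl was not tested), 8 were higher in heart and 0 higher in muscle, with a median difference of 4.94, or 4.28 with genes below background set at their limit and 3.07 without mouse E. Of the 8 above background on all 6 arrays 5 were higher in heart, with a median of 3.23. Tnni3, the cardiac troponin I, had levels of 8.23, 8.33 and 8.36 in heart and was not well above background in muscle, so that it was at least 7098-fold higher in heart (adjusted p = 9.0e-05). Mybpc3, the cardiac myosin-binding protein C, had heart levels of 8.36, 8.32 and 8.66 and was at least 8785-fold higher in heart (adjusted p = 4.4e-05). The 3 hearts lay close together for both genes. Tnnt2, the cardiac troponin T, had levels of 8.61, 8.67 and 8.76 in heart and of -1.41, -0.96 and 0.09 in muscle, a difference of 9.44 (SE 0.29, adjusted p = 0.00015). Actc1, the cardiac actin, was present in both tissues, with levels of 9.08, 9.22 and 9.38 in heart and of 7.79, 6.75 and 7.995 in muscle. Its difference of 1.72 (SE 0.28, adjusted p = 0.0082) was the smallest of the list members that passed. Without mouse E, Myh7 and Myl4, which slow fibres or the atrium also make, passed towards muscle.

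The fast skeletal contractile genes were all higher in muscle, 12 of 12, with a median difference of -12.07. Of the 7 above background on all 6 arrays 7 were higher in muscle, with a median of -8.02. Myh1 and Myh2, the myosins of the other fast fibre types, were at least 18463-fold and at least 17938-fold higher in muscle (adjusted p = 4.7e-05 and 0.00014), with no heart array well above background. Myh1 had muscle levels of 8.96, 8.57 and 8.82. Tnnt3, the fast troponin T, had levels of -3.85, -3.75 and -4.15 in heart and of 9.61, 10.19 and 9.53 in muscle. Hearts and muscles thus stood more than 13 log2 units apart in each mouse. Tnnc2, the fast troponin C, differed by -11.91 (SE 0.20, adjusted p = 4.7e-05), and Actn3, the alpha-actinin of fast fibres, by -14.71 (SE 0.18), with 2 of 3 hearts above background. Acta1, the skeletal actin, had levels of 2.41, 2.93 and 2.503 in heart and of 9.95, 10.09 and 9.67 in muscle, a difference of -7.29 (SE 0.16, adjusted p = 8.1e-05). Tnni2, the fast troponin I, differed by -8.99 (SE 0.25) and Myl1, a fast essential light chain, by -5.92 (SE 0.26). Mylpf, the fast regulatory light chain, differed by only -1.87 (SE 0.37, adjusted p = 0.015) on the probe that stood for it. A second Mylpf probe had levels of -7.84, -6.89 and -6.92 in heart and of 3.70, 3.94 and 3.75 in muscle, so the size for this gene depends on the probe.

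The slow skeletal genes did not follow the fast ones. Of 6 tested, 3 were higher in muscle, 1 was higher in heart and 2 did not pass. Mybpc1, the slow myosin-binding protein C, had levels of -3.21, -3.04 and -3.20 in heart and of 7.21, 7.68 and 7.498 in muscle, a difference of -10.61 (SE 0.15, adjusted p = 4.4e-05). Tnni1, the slow troponin I, differed by -7.05 (SE 1.07, adjusted p = 0.0068) with 2 of 3 hearts above background, and Myl6b, a slow light chain, by -2.77 (SE 0.25). Myh7b, a myosin of heart and slow fibres, was higher in heart by 4.88 (SE 1.28, adjusted p = 0.031) and did not pass without mouse F. Tpm3, the slow tropomyosin, did not pass (0.62, SE 0.21, adjusted p = 0.058), and the mean over its probes gave -3.47 instead. The SE of about 1 for several of these genes, against a median of 0.17 over all genes, came with the muscle of 1 mouse.

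The muscle of mouse E was low in the genes that slow fibres share with the ventricle. Myh7, the myosin of slow fibres and of the ventricle, had levels of 7.67 and 8.32 in the muscles of D and F and of 2.38 in that of E, while the hearts had 5.73, 5.10 and 4.64. Tnnt1, the slow troponin T, had muscle levels of 7.12, 2.52 and 8.18 in D, E and F. Myl2, the ventricular regulatory light chain, had muscle levels of 5.92, 2.39 and 7.504. In each of these genes muscle E was the lowest of the 3 muscles by more than 3 log2 units. Tnnc1, the troponin C of heart and slow fibres, had muscle levels of 2.91, -1.25 and 4.41, and Atp2a2, the calcium pump of heart and slow fibres, had 3.08, 0.49 and 4.82. The hearts held these last genes within a narrow range, from 6.92 to 6.99 for Tnnc1 and from 7.99 to 8.08 for Atp2a2. With all 3 mice Myh7 did not pass (-0.97, SE 1.26, adjusted p = 0.55), nor did Tnnt1 (-2.40, SE 1.17, adjusted p = 0.15). Without mouse E both passed as higher in muscle, Myh7 by -2.81 (adjusted p = 0.018) and Tnnt1 by -4.15 (adjusted p = 0.0042). Myl3, the ventricular essential light chain, did not pass with all mice (3.03, adjusted p = 0.11) or without mouse E (1.10, adjusted p = 0.069). The fast genes did not share this spread, and the muscles held Myh4 within 9.51 to 9.90.

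The heart of mouse E stood apart in atrial genes. Myl7, the atrial regulatory light chain, had levels of -2.12, 4.27 and -3.26 in hearts D, E and F. Myl4, the atrial essential light chain, had 1.11, 6.99 and 1.11, and Sln, the sarcolipin that restrains the calcium pump in the atrium, had -2.85, 5.54 and -6.62. Nppa, the atrial natriuretic peptide, had 5.27, 7.69 and 5.31. Heart E was thus the highest of the 3 in all of them, by more than 2 log2 units. Of 8 atrial markers 3 were higher in heart (Nppa, Myl7 and Gja5) and 0 higher in muscle, while without mouse E 2 were higher in heart and 3 higher in muscle, Sln (-9.497, adjusted p = 0.0049), Myl4 (-2.02, adjusted p = 0.0057) and Stard10 (-0.82, adjusted p = 0.046). In the fit restricted to genes above background on all 6 arrays, 5 atrial markers were tested. There 2 were higher in heart and 2 higher in muscle, with a median difference of 0.003. The summed level of the list was 5.47, 8.69 and 5.51 in the hearts and 5.24 to 5.60 in the muscles. The part that the makeup of the pieces of heart and muscle has in these results was not tested. Leaving out mouse E lowered the number of genes that passed from 7919 to 5122.

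**Figure D2:**
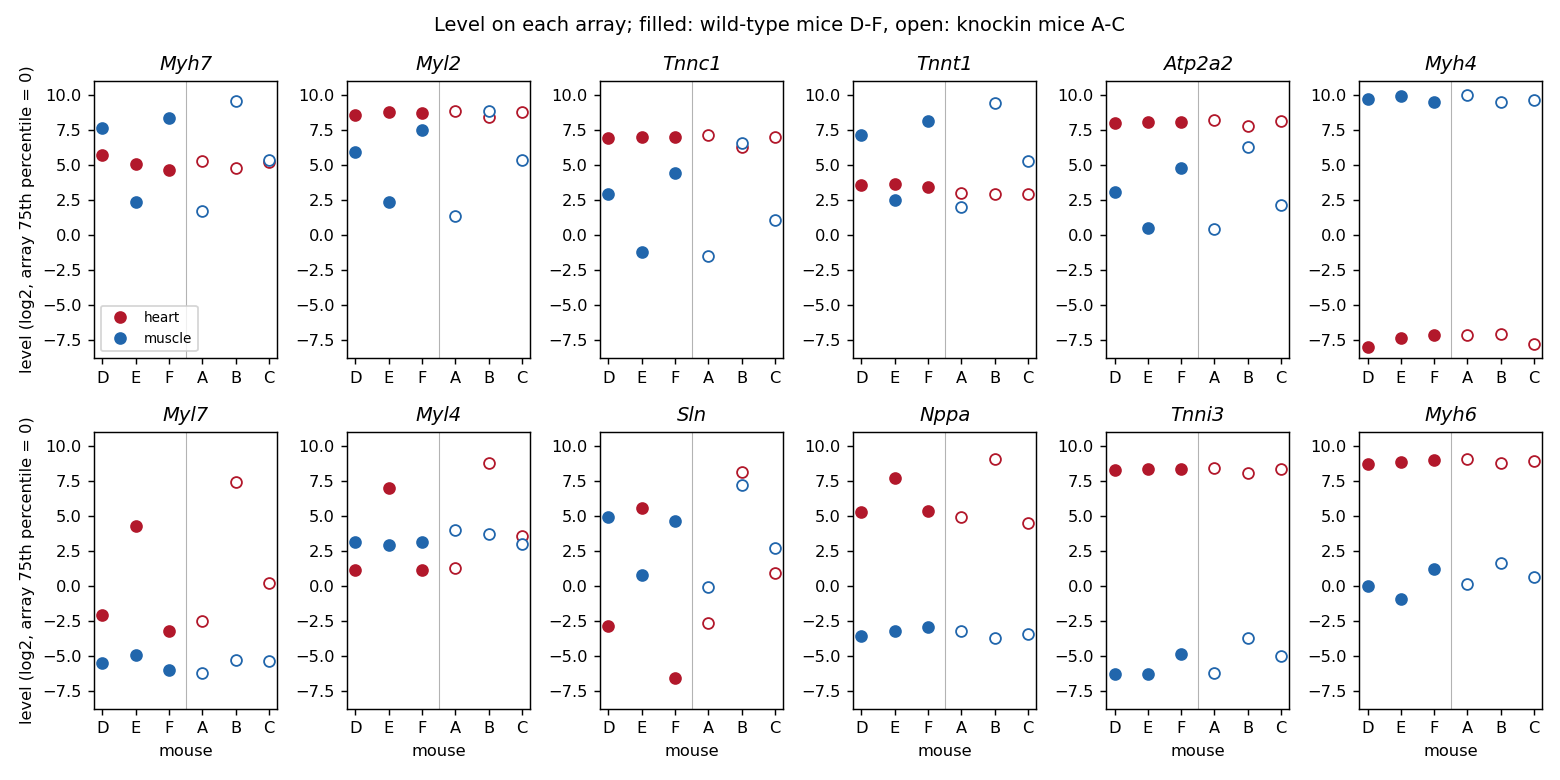
Level of 12 genes on each heart (red) and muscle (blue) array, in log2 with the array's 75th percentile at 0, for WT mice D, E and F (filled) and KI mice A, B and C (open). The top row holds 5 genes of slow fibres and ventricle with Myh4 beside them, where muscle E and muscle A are lowest, and the bottom row 4 atrial genes with Tnni3 and Myh6 beside them, where hearts E and B are highest in the atrial genes.

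The KI arrays, which the comparison did not use, varied between mice in the same genes. Muscle levels of Myh7 were 1.75, 9.60 and 5.34 in mice A, B and C, and those of Tnnt1 were 2.01, 9.42 and 5.27. Heart levels of Myl7 were -2.55, 7.44 and 0.18, and those of Sln were -2.70, 8.09 and 0.88. Muscle A was the lowest and muscle B the highest of the KI muscles in the slow genes, and heart B was the highest KI heart in the atrial genes. Among the 12995 genes above background on all 6 WT arrays, the level ranged by at least 3 over the 3 hearts in 10 genes, of which heart E lay farthest out in 8. Over the 3 muscles it did so in 66 genes, of which muscle D lay farthest out in 35, muscle E in 27 and muscle F in 4.

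Promoter sequence is shown for 6 genes that carry the contrast, 3 of the heart and 3 of skeletal muscle: the cardiac myosin Myh6, the natriuretic peptides Nppa and Nppb, the fast myosin Myh4, the skeletal actin Acta1 and the fast calcium pump Atp2a1. Each run is the 250 bases before the RefSeq transcription start, read 5′ to 3′ on the gene's strand from the RefSeq promoters of assembly GRCm38.p6. Capitals mark matches to 5 motifs searched on both strands: the MCAT element spelled CATTCC, the GATA element spelled AGATAA, the E-box spelled CAGCTG, and the MEF2 and CArG motifs by their usual consensus. The windows are chr14:54966608-54966857 (minus strand) for Myh6, chr4:148000472-148000721 (plus) for Nppa, chr4:147985650-147985899 (plus) for Nppb, chr11:67237562-67237811 (plus) for Myh4, chr8:123894776-123895025 (minus) for Acta1 and chr7:126463074-126463323 (minus) for Atp2a1.
Myh6: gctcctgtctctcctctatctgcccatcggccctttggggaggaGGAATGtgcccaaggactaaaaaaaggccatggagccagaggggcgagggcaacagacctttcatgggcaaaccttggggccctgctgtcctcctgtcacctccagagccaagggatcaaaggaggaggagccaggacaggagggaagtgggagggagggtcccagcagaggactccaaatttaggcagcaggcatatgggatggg
Nppa: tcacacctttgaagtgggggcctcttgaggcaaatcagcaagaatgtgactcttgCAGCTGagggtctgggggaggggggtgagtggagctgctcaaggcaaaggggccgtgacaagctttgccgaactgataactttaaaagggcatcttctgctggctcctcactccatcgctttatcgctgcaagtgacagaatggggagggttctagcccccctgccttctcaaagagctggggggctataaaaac
Nppb: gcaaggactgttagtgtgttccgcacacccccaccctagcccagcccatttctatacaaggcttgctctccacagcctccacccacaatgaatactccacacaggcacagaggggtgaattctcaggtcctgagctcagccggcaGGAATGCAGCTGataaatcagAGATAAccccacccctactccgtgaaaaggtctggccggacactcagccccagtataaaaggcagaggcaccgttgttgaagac
Myh4: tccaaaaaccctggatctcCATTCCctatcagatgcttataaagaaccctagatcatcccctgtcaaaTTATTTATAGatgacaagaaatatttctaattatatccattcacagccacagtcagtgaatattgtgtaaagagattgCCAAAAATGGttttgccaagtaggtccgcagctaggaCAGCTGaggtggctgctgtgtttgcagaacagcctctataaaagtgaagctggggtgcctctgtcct
Acta1: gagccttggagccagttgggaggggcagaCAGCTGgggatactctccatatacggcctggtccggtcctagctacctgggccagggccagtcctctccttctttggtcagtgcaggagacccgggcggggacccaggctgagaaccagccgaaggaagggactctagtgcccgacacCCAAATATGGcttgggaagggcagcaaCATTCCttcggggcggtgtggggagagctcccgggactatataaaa
Atp2a1: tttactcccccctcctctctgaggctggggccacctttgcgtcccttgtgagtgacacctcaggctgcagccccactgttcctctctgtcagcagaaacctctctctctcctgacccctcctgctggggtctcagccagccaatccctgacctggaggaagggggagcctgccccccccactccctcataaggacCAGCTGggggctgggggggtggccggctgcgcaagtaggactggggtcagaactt

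Counted in bases before the start, Myh6 held MCAT at 206 to 201 and Nppa an E-box at 195 to 190. Nppb held MCAT at 105 to 100, an adjoining E-box at 99 to 94 and GATA at 84 to 79. Myh4 held MCAT at 231 to 226, MEF2 at 182 to 173, CArG at 104 to 95 and an E-box at 67 to 62. Acta1 held an E-box at 221 to 216, CArG at 73 to 64 and MCAT at 46 to 41, and Atp2a1 an E-box at 55 to 50. The windows of Tnni3 and Ckm were searched as well, and Tnni3 held no match and Ckm 1. The genes shown were chosen with these results known, and a match is a stretch of letters rather than a bound site. Of 432 genes higher in heart by at least 3 (2.9% of those tested), 326 matched a promoter by symbol, and of 411 higher in muscle by at least 3 (2.76%), 309 did. MCAT was found in 16.3% of the windows of the former and 13.1% of the latter, against 12.6% of all 32851 RefSeq windows. GATA was found in 12.1%, 7.71% and 9.99%, and the E-box in 16.3%, 17.5% and 13% in the same order. MEF2 was found in 1.73%, 3.34% and 1.69%, and CArG in 1.98%, 1.54% and 1.47%. Over the windows of all tested genes the shares were 11.2% for MCAT, 6.65% for GATA, 12.6% for the E-box, 1.33% for MEF2 and 1.33% for CArG, so that the muscle share of GATA lay below that of all RefSeq windows and above that of tested genes.

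The scaffold around the filaments leaned to muscle. Of 46 tested genes of the Z-disc, M-band and thin filament, 31 were higher in muscle, 6 higher in heart (10 under quantile scaling) and 9 did not pass, with a median difference of -1.40. Myoz1, the calsarcin of fast fibres that binds calcineurin at the Z-disc, had levels of -3.10, -2.90 and -3.08 in heart and of 8.54, 8.93 and 8.64 in muscle, a difference of -11.73 (SE 0.14, adjusted p = 4.4e-05). Neb, the nebulin ruler of the skeletal thin filament, differed by -10.11 (SE 0.17) and Ankrd2, a stretch-responsive ankyrin repeat protein, by -7.69 (SE 0.45). Genes that both muscles need in quantity were also higher in muscle, but by less, Ttn, the titin spring, by -1.31 (SE 0.15, adjusted p = 0.0033) and Des, the desmin filament, by -1.28 (SE 0.19, adjusted p = 0.0064). Towards heart stood Fhl2, a LIM protein, with levels of 8.12, 8.33 and 8.43 in heart and of 0.19, -2.25 and 0.34 in muscle. Its difference was 8.87 (SE 0.58, adjusted p = 0.00081). Nebl, the nebulette of the cardiac Z-disc, passed towards heart on a probe with no muscle array above background, so that its size is not known there, and its other probe differed by 2.97. Ankrd1, the cardiac ankyrin repeat protein, differed by 5.32 (SE 0.37, adjusted p = 0.00093). Csrp3, the muscle LIM protein, and Myoz2, the calsarcin of heart and slow fibres, were higher in heart by 4.28 (SE 0.76) and 3.12 (SE 0.66), and their muscle levels were lowest in mouse E (0.91 and 2.06).

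The genes of excitation-contraction coupling divided by tissue at the surface channel, the release channel and the pump. Of 42 tested, 24 were higher in muscle, 12 higher in heart and 6 did not pass. The junctophilins Jph1 and Jph2 did not divide, and both were higher in muscle (-4.92 and -1.065). Cacna1s, the L-type channel of skeletal muscle, had levels of 3.23, 2.94 and 3.22 in heart and of 9.19, 9.32 and 9.04 in muscle, a difference of -6.05 (SE 0.17, adjusted p = 0.00013). Cacna1c, the L-type channel of the heart, had levels of 4.54, 4.52 and 4.71 in heart and of 0.21, -0.39 and -0.07 in muscle, a difference of 4.67 (SE 0.18, adjusted p = 0.00023). Neither gene overlapped between the tissues. Stac3 and Jsrp1, adaptors of the skeletal channel complex, differed by -7.78 (SE 0.28) and -8.83 (SE 0.14). Ryr1, the release channel of skeletal muscle, had levels of -4.31, -4.35 and -4.22 in heart and of 7.62, 8.16 and 7.97 in muscle, a difference of -12.21 (SE 0.17, adjusted p = 4.4e-05). Ryr2, that of the heart, had heart levels of 5.38, 5.70 and 5.64 and was at least 1198-fold higher in heart (adjusted p = 4.7e-05). The calcium buffers of the store followed their names as well, with Casq1 at -9.79 (SE 0.20) and Casq2 at 4.36 (SE 0.46).

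Calcium removal differed in the same way. Atp2a1, the pump of fast fibres, differed by -5.51 (SE 0.14, adjusted p = 0.0001) and Atp2a2 by 5.25 (SE 0.83, adjusted p = 0.0076), or by 4.09 without mouse E. Pln, the phospholamban that restrains the cardiac pump, had levels of 7.05, 7.31 and 7.23 in heart and of -2.42, -3.43 and -1.85 in muscle, a difference of 9.77 (SE 0.35, adjusted p = 0.00021). Mrln, the micropeptide that does so in skeletal muscle, differed by -6.16 (SE 0.15). Hearts and muscles did not overlap for any of these pump genes. Pvalb, the parvalbumin that buffers calcium in fast fibres, had levels of -3.11, -3.23 and -3.49 in heart and of 9.98, 10.29 and 9.77 in muscle, a difference of -13.29 (SE 0.16, adjusted p = 4.4e-05). Slc8a1, the sodium-calcium exchanger of the heart, differed by 3.54 (SE 0.26, adjusted p = 0.001), and Asph, the locus of junctin and aspartyl hydroxylase, by 2.88 (SE 0.14). Slc8a3, the exchanger of skeletal muscle, did not pass (0.26, SE 0.23, adjusted p = 0.37), and the mean over its probes was lower in heart (-0.63, adjusted p = 0.016). Trdn, the triadin of the release complex, and Hrc, a calcium-binding protein of the store, were higher in muscle by -2.61 (SE 0.16) and -0.64 (SE 0.16).

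Ion channels of the action potential went both ways, 21 higher in heart and 13 higher in muscle of 39 tested, with a median difference of 0.90. Of the 33 above background on all 6 arrays 15 were higher in heart and 13 in muscle, with a median of 0.17. Potassium channels of cardiac repolarization and of the pacemaker region held the largest differences to heart. Kcnj5, a subunit of the acetylcholine-gated potassium channel, had levels of 3.91, 3.94 and 4.13 in heart and of -6.17, -6.21 and -3.92 in muscle, with 1 of 3 muscles above background, a difference of 9.43 (SE 0.47, adjusted p = 0.00045). Kcnd2, a channel of the transient outward current, was at least 121-fold and Kcnv2, a silent modifier subunit, at least 46.4-fold higher in heart. Kcnk3, a background leak channel, differed by 6.90 (SE 0.17) and Kcnq1, of the slow delayed rectifier, by 5.32 (SE 0.19). Scn4a, the sodium channel of skeletal fibres, differed by -2.92 (SE 0.17, adjusted p = 0.00064).
The connexin Gja1, which makes the main gap junction of the ventricle, had levels of 2.77, 2.96 and 2.43 in heart and of -0.94, -2.45 and -1.995 in muscle, a difference of 4.51 (SE 0.35, adjusted p = 0.0012). Towards muscle stood Clcn1, the chloride channel that steadies the fibre membrane, at -5.02 (SE 0.19), and the fast potassium channels Kcnc4 at -6.47 (SE 0.27) and Kcnc1 at -5.78 (SE 0.18). Hcn2, a pacemaker channel, was higher in muscle (-1.76, SE 0.28) on its brightest probe, but the mean over its probes was 0.29 and did not pass (adjusted p = 0.27).

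Of 13 tested genes of the synapse between nerve and fibre 8 were higher in muscle, 2 higher in heart and 3 did not pass, and of the 9 above background on all 6 arrays 5 were higher in muscle. The acetylcholine receptor subunits Chrna1, Chrnd and Chrne were at least 197-fold, at least 50.6-fold and at least 9.77-fold higher in muscle, with no heart array well above background. Musk, the kinase that organizes the synapse, was at least 38.1-fold higher in muscle. Chrna1 had muscle levels of 1.62, 2.47 and 2.62. Chrnb1, the beta subunit, was measured in both tissues, and it differed by -2.58 (SE 0.17, adjusted p = 0.00087), and Ache, the acetylcholinesterase, by -2.79 (SE 0.32). The members higher in heart were Agrn, the agrin of basal laminae (1.47, SE 0.17, adjusted p = 0.0034), and Prkar1a, a regulatory subunit of protein kinase A (1.65, SE 0.21, adjusted p = 0.004).

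The junctions between heart cells were the mirror case. Of 18 tested genes of the intercalated disc and cell adhesion, 14 were higher in heart, 1 was higher in muscle and 3 did not pass, with a median difference of 1.501. Of the 13 above background on all 6 arrays 9 were higher in heart, with a median of 0.98. Dsp, the desmoplakin of desmosomes, had heart levels of 5.93, 5.87 and 6.03 and was at least 1550-fold higher in heart (adjusted p = 4.4e-05). The desmosomal cadherins Dsc2 and Dsg2 were at least 65.5-fold and at least 40.8-fold higher in heart. None of these 3 genes was well above background in any muscle. Cdh2, the cadherin of the adherens junction, had levels of 5.93, 5.90 and 6.25 in heart and of 0.94, -0.52 and -0.37 in muscle, a difference of 6.01 (SE 0.36, adjusted p = 0.00067). Pkp2, the plakophilin of the disc, differed by 4.54 (SE 0.17). The exception was Cdh15, the M-cadherin of myogenic cells, at -7.23 (SE 0.17, adjusted p = 9.7e-05). The dystrophin complex, which both muscles need, showed no lean. Of 20 tested members 4 were higher in heart (2 without mouse D or without mouse F) and 4 in muscle (2 without mouse E), with a median difference of -0.04 that turned to 0.05 and 0.22 under other background correction and quantile scaling. Dmd, the dystrophin gene, differed by -0.85 (SE 0.17, adjusted p = 0.014), and Utrn, its relative utrophin, by 0.72 (SE 0.14, adjusted p = 0.014).

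Transcription factors of the cardiac and the skeletal lineage mostly followed their tissue. Of 24 tested cardiac factors 20 were higher in heart, 3 higher in muscle and 1 did not pass, with a median difference of 4.63. Many entered the test only through the hearts, and of the 12 above background on all 6 arrays 8 were higher in heart and 3 in muscle, with a median of 1.49. Nkx2-5, the homeobox factor of the cardiac lineage, had heart levels of 4.41, 4.63 and 4.06 and was at least 519-fold higher in heart (adjusted p = 0.0001). Gata4, the zinc finger factor, had heart levels of 3.75, 3.78 and 3.38 and was at least 314-fold higher. Hand2, Myocd and Tbx20 were at least 135-fold, at least 104.5-fold and at least 68.3-fold higher in heart. None of these 5 factors was well above background in any muscle. Gata6 differed by 6.26 (SE 0.45), Hopx by 6.45 (SE 0.15), Tbx5 by 6.43 (SE 0.63, with 2 of 3 muscles above background) and Irx4, the ventricular Iroquois factor, by 5.34 (SE 0.58). The 3 list members higher in muscle were Mef2c (-2.99, SE 0.21, adjusted p = 0.001), a factor of both muscle lineages, Nr2f2 (-1.36, SE 0.19) and Gata5 (-1.15, SE 0.31).

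Of 23 tested skeletal myogenic factors 19 were higher in muscle, 2 higher in heart and 2 did not pass, with a median difference of -2.91. Of the 12 above background on all 6 arrays 10 were higher in muscle and 0 in heart. Among the 4 myogenic basic helix-loop-helix factors, Myf6 had levels of -3.30, -3.56 and -4.76 in heart and of 4.23, 4.64 and 4.56 in muscle, a difference of -8.35 (SE 0.37, with 2 of 3 hearts above background). Myog and Myod1 were at least 46.7-fold and at least 24.6-fold higher in muscle, and Myf5 was not tested. Tbx15, a factor of fast fibres, differed by -9.62 (SE 0.25, adjusted p = 0.00011) with 1 of 3 hearts above background. Lbx1, a homeobox factor of migrating muscle precursors, was at least 17.1-fold higher in muscle. The list members higher in heart were Tcf21, also a gene of epicardium and fibroblasts, by at least 21.3-fold, and Msc, which was not well above background in muscle, had a limit of 1.04-fold, and turned to higher in muscle (-0.50) under normexp background correction.

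The Hox genes, which record position along the body axis, were a skeletal group. Of 39 listed genes 26 were tested, 23 were higher in muscle and 0 higher in heart, with a median difference of -4.01, or -3.26 with genes below background set at their limit. Most entered the test only through the muscles, and of the 11 above background on all 6 arrays 8 were higher in muscle, with a median of -2.49. Hoxc9 had muscle levels of 3.29, 3.68 and 3.32 and was at least 451-fold higher in muscle (adjusted p = 0.00011). Hoxc10 and Hoxa10 were at least 231-fold and at least 58.4-fold higher in muscle, and no heart array was well above background for these 3 genes. The genes that did not pass were Hoxb2, Hoxb3 and Hoxb4, with differences of 0.36, 0.17 and -0.14 (adjusted p = 0.10, 0.49 and 0.59). Hoxb2 had levels of -1.57, -2.05 and -1.33 in heart and of -1.81, -2.33 and -1.90 in muscle, and the tissues overlapped.

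Hormone and nerve signalling to the heart was also measured. Of 23 tested genes of natriuretic peptides and autonomic receptors 18 were higher in heart, 3 higher in muscle and 2 did not pass, with a median difference of 2.38. Of the 14 above background on all 6 arrays 10 were higher in heart and 2 in muscle, with a median of 1.30. Nppa had levels of -3.59, -3.24 and -2.97 in muscle against the heart levels given above, a difference of 9.36 (SE 0.54, adjusted p = 0.00064). Nppb, the ventricular natriuretic peptide, had heart levels of 5.46, 5.11 and 4.62 and was at least 842-fold higher in heart (adjusted p = 9.1e-05). Corin, the protease that activates these peptides, was at least 280-fold higher. Chrm2, the muscarinic receptor of the vagus, was at least 49.2-fold higher in heart. The beta adrenergic receptors split, with Adrb1 higher in heart (adjusted p = 0.00055) on a probe with no muscle array above background, where its other probe differed by 1.18, and Adrb3 higher in muscle by -5.19 (SE 0.29, with 2 of 3 hearts above background). Adrb3 is also a receptor of fat cells, whose markers were higher in muscle as given below, and the part of fat in its difference was not tested. Pde4d, a phosphodiesterase, was higher in muscle by -2.21 (SE 0.18).

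Of 18 tested secreted factors and receptors 8 were higher in heart, 5 higher in muscle and 5 did not pass, and the muscle share of 27.8% was near the 26.2% of all genes. Ostn, the osteocrin that binds the natriuretic clearance receptor, had muscle levels of 5.87, 3.58 and 5.55 and was at least 1338-fold higher in muscle (adjusted p = 0.00047). Mstn, the myostatin that limits muscle growth, had muscle levels of 3.15, 3.58 and 3.06 and was at least 393-fold higher in muscle (adjusted p = 4.7e-05). Neither was well above background in any heart. Fst, the follistatin that binds myostatin, was higher in muscle by -3.08 (SE 0.20). Towards heart stood Apln, the peptide apelin, by 2.84 (SE 0.16), Bdnf, a neurotrophin, by 2.80 (SE 0.28), and Gdf15, a stress cytokine, by 2.54 (SE 0.22).

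Fuel genes differed by less than the contractile genes but in a regular way. Of 38 tested genes of fatty acid uptake and oxidation 29 were higher in heart, 1 was higher in muscle and 8 did not pass, with a median difference of 1.13. Lpl, the lipoprotein lipase, had levels of 8.15, 8.04 and 8.23 in heart and of 5.87, 5.23 and 6.30 in muscle, a difference of 2.34 (SE 0.21, adjusted p = 0.0018). Cd36, the fatty acid transporter, differed by 2.14 (SE 0.18), Cpt1a and Cpt1b, the gates of entry to the mitochondrion, by 1.92 (SE 0.21) and 0.49 (SE 0.14), and Hadha, of the trifunctional enzyme, by 2.21 (SE 0.33). The largest in the list was Ucp2, an uncoupling protein also made by macrophages, at 3.05 (SE 0.45). The regulators Ppara and Ppargc1a differed by 1.63 (SE 0.13) and 1.53 (SE 0.13). The member higher in muscle was Acacb, which makes the malonyl-CoA that blocks this entry, by -0.51 (SE 0.15, adjusted p = 0.045), and it did not pass when any 1 of the mice was left out. Pdk4, the kinase that shuts off glucose oxidation, followed the mouse and not the tissue, with levels of 5.44, 4.38 and 6.62 in heart and of 5.75, 4.22 and 6.97 in muscle. Its difference was -0.17 (SE 0.17, adjusted p = 0.45).

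How far the enzymes further down the path differed hung on the scaling of the arrays. Of 11 tested genes of ketone body and branched-chain oxidation 5 were higher in heart, led by Bdh1, the ketone dehydrogenase, at 2.89 (SE 0.46, adjusted p = 0.0076), and without mouse D 3 were and under quantile scaling 8. Of 25 tested genes of the tricarboxylic acid cycle 8 were higher in heart and 1 (Idh3a, -0.56, SE 0.13) higher in muscle, with a median difference of 0.22, and without mouse D, E or F 3, 2 or 5 were higher in heart and 0 in muscle. Under quantile scaling 21 of the 25 were higher in heart, with a median difference of 0.62. Idh2, the mitochondrial NADP enzyme, differed most (1.61, SE 0.32, adjusted p = 0.014). Cs, the citrate synthase, had levels of 8.14, 8.15 and 8.42 in heart and of 8.45, 8.49 and 8.45 in muscle, a difference of -0.22 (SE 0.15, adjusted p = 0.25) that turned to 0.48 (adjusted p = 0.033) under quantile scaling. Of 76 tested nuclear genes of the respiratory chain and ATP synthase 12 were higher in heart and 0 in muscle, with a median difference of 0.13, and without mouse D, E or F 4, 3 or 5 were. Under quantile scaling 59 of the 76 were higher in heart (median 0.64), under normexp correction 26, with array weights 15 with 11 higher in muscle, and on the deposited scores 7 with 5 higher in muscle. No direction is therefore read from this list. Those with the largest differences were subunits of cytochrome oxidase, Cox8a at 1.31 (SE 0.15), Cox4i2 at 1.19 (SE 0.17) and Cox6a1 at 1.08 (SE 0.24).

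Glycolysis and glycogen leaned to muscle, 30 genes higher in muscle, 9 higher in heart and 3 not past the test of 42 tested, with a median difference of -1.58. The shared steps were higher in muscle by moderate amounts, such as Gapdh by -1.001 (SE 0.16), Aldoa by -1.40 (SE 0.21) and Pkm by -1.86 (SE 0.15). Glycogen metabolism followed, with Pygm, the muscle phosphorylase, at -2.48 (SE 0.14), Phkg1, the catalytic subunit of phosphorylase kinase, at -4.82 (SE 0.17) and Gys1, the synthase, at -2.24 (SE 0.20). Slc16a3, the transporter that exports lactate, had levels of -0.68, -0.37 and -0.66 in heart and of 6.54, 6.97 and 6.92 in muscle, a difference of -7.38 (SE 0.15, adjusted p = 7.1e-05). Slc16a1, which mostly imports it, did not pass (-0.14, SE 0.20, adjusted p = 0.59).

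The members that went to heart were mostly other forms of enzymes whose main muscle form went to muscle. Pygb, the brain-type phosphorylase, had levels of 4.08, 4.18 and 4.13 in heart and of -1.79, -2.30 and -1.89 in muscle, a difference of 6.12 (SE 0.18, adjusted p = 0.00013). Hk1 differed by 3.99 (SE 0.19), against -0.66 (SE 0.17) for Hk2, the insulin-regulated hexokinase. Pfkl and Pfkp, the liver and platelet phosphofructokinases, differed by 3.29 (SE 0.21) and 2.08 (SE 0.23), against -2.12 (SE 0.14) for Pfkm, the muscle form. Ldhb, the heart subunit of lactate dehydrogenase, had levels of 8.16, 8.20 and 8.30 in heart and of 5.99, 5.09 and 6.71 in muscle, a difference of 2.29 (SE 0.32, adjusted p = 0.0054), and Ldha, the muscle subunit, differed by -1.53 (SE 0.17). Of the enzymes that set fructose-2,6-bisphosphate, Pfkfb2 was higher in heart (2.05, SE 0.14) and Pfkfb3, Pfkfb4 and Pfkfb1 were higher in muscle (-5.09, -4.18 and -1.92). Pgam1 and Pgam2, phosphoglycerate mutases, differed by 1.56 and -2.15.

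**Figure D3:**
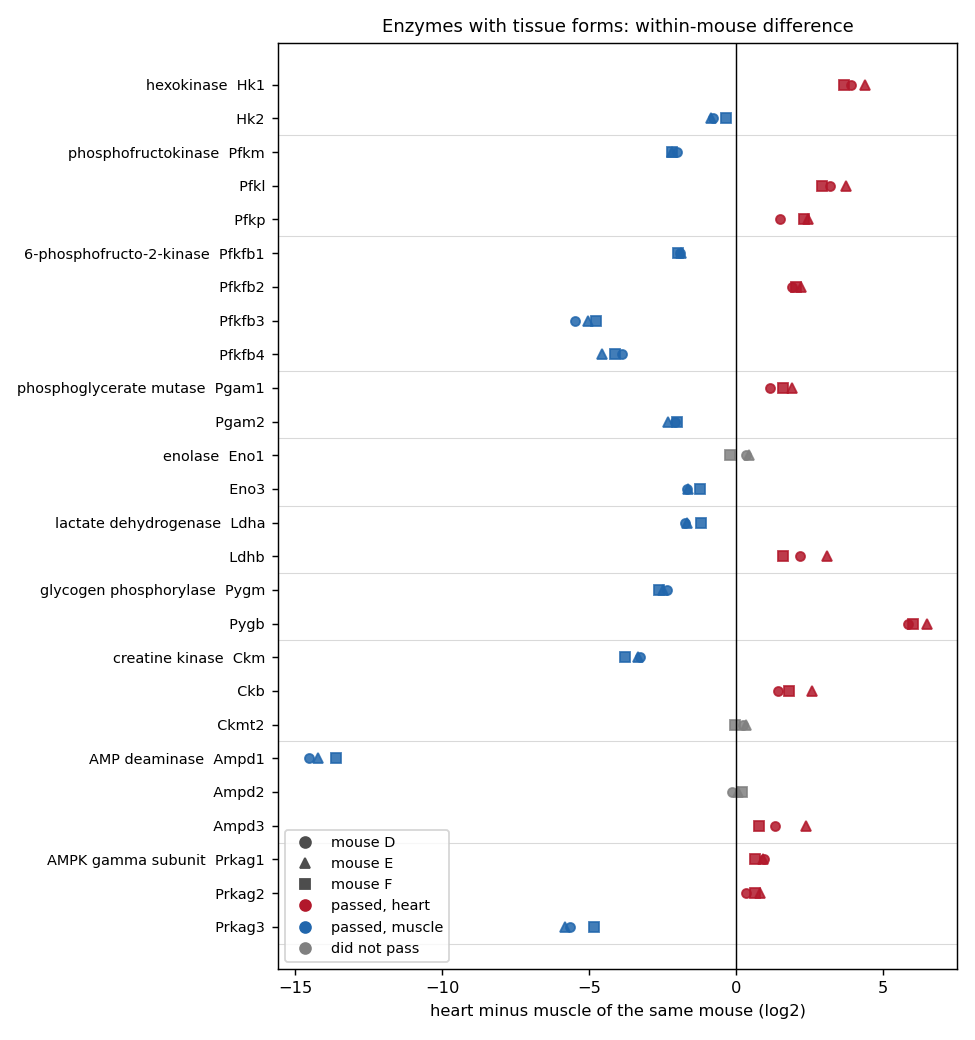
Heart minus muscle difference (log2) within mouse D (circle), E (triangle) and F (square) for the forms of 10 enzymes of energy metabolism, in red where the gene passed as higher in heart, in blue where it passed as higher in muscle and in grey where it did not pass. In 9 of the 10 families forms passed on both sides, and in enolase only Eno3 passed, towards muscle. The values plotted for Ampd1, which was below background in heart, are not limits.

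Phosphagen and adenylate genes had a median difference of 0.04, with 5 of 17 tested higher in heart (3 without mouse D or without mouse E, and 8 under quantile scaling) and 6 higher in muscle. Ampd1, the AMP deaminase of fast fibres, had muscle levels of 6.56, 6.92 and 6.55 and was at least 4283-fold higher in muscle (adjusted p = 4.7e-05). Ckm, the cytosolic creatine kinase of muscle, had levels of 5.36, 5.58 and 5.35 in heart and of 8.63, 8.91 and 9.14 in muscle, a difference of -3.47 (SE 0.17, adjusted p = 0.00043). Ckb, the brain form, differed by 1.95 (SE 0.26). Ckmt2, the mitochondrial form of both muscles, did not pass (0.18, SE 0.15, adjusted p = 0.36), nor did Mb, the myoglobin (0.39, SE 0.25, adjusted p = 0.24). The gamma subunits of the AMP-activated kinase split, with Prkag3 at -5.43 (SE 0.24) and Prkag1 and Prkag2 at 0.83 (SE 0.15) and 0.60 (SE 0.16).

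Among genes above background on all 6 arrays, the 10 with the largest differences to heart were Pln, Tnnt2, Nppa, Lrrc10, Fhl2, Myh6, Ptgds, Mtus2, Fam174b and Slc25a13. Of those not yet described, Lrrc10, a leucine-rich repeat protein of heart cells, had levels of 5.31, 5.55 and 5.24 in heart and of -3.45, -3.86 and -3.65 in muscle, a difference of 9.02 (SE 0.19, adjusted p = 7.4e-05). Ptgds, the prostaglandin D synthase, had muscle levels of -3.85, 2.39 and -2.64, so that its difference of 8.68 had an SE of 1.16 (adjusted p = 0.0048). Muscle E was the highest of the 3 for this gene. Slc25a13, an aspartate-glutamate carrier of the mitochondrion, differed by 7.22 (SE 0.29, adjusted p = 0.00027). The 10 with the largest differences to muscle were Tnnt3, Pvalb, Ryr1, Tnnc2, Myoz1, Mybpc1, Neb, Casq1, Dusp13 and Tnni2, of which Dusp13, a phosphatase, is the member not yet described (-9.19, SE 0.21, adjusted p = 9.0e-05).

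Among genes below background in all arrays of the other tissue, the largest limits towards heart belonged to Mybpc3, Tnni3, Dsp, Ryr2, Nppb, Mhrt, Rnf207, Nkx2-5, Gata4 and Corin. Mhrt, the noncoding RNA antisense to the cardiac myosin locus, had heart levels of 5.32, 5.22 and 5.22 and was at least 778-fold higher in heart (adjusted p = 4.7e-05). Rnf207, a ring finger protein that affects cardiac repolarization, was at least 625-fold higher. Towards muscle they were Myh4, Myh1, Myh2, Ampd1, Plcd4, Ostn, Hoxc9, Mstn, Casr and Hoxc10. Plcd4, a phospholipase C, was at least 1629-fold and Casr, the calcium-sensing receptor, at least 322-fold higher in muscle. In all, 667 tested genes were above background in every heart and no muscle, of which 546 passed, and 120 were above background in every muscle and no heart, of which 120 passed. These genes entered the test only through the tissue where they are high. The heart arrays were also brighter, with a 75th percentile signal of 860 to 1130 against 406 to 593, and had 56.9% to 66.2% of probes well above background against 51.8% to 52.8%. The part of this in the 2 numbers was not tested.

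Markers of other cell types moved with the tissues, and their part in the results above was not tested. Macrophage markers were higher in heart for 11 of 12, with a median difference of 2.46 (2.31 with limits), and their summed level was 5.39 to 5.56 in the hearts and 2.23 to 3.79 in the muscles. C1qa, a complement chain made by resident macrophages, had levels of 1.64, 1.98 and 1.42 in heart and of -0.95, -2.16 and -0.63 in muscle, a difference of 2.93 (SE 0.43, adjusted p = 0.0063). Endothelium markers were higher in heart for 13 of 14 (8, 6 or 8 of 14 without mouse D, E or F), with a median difference of 0.81 and summed levels of 7.66 to 7.94 against 6.78 to 7.04. Kdr, the main receptor of vascular growth factor, differed by 1.75 (SE 0.16). Epicardium and mesothelium markers were higher in heart for 7 of 8, with Wt1, a zinc finger factor of the heart's outer layer, at least 62.4-fold higher. Some of them entered the test only through the hearts, and of the 4 above background on all 6 arrays 3 were higher in heart. Blood markers were higher in heart for 5 of 7 tested (2 without mouse F), with summed levels of 10.35 to 10.94 against 8.52 to 9.85, and Hba-a1 and Hbb-bt, globin genes with near-identical copies, differed by 2.44 (SE 0.32) and 2.58 (SE 0.44).

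Fat and tendon stood on the muscle side. Adipocyte markers were higher in muscle for 6 of 8 and in heart for 0, with a median difference of -4.63 and summed levels of 2.95 to 3.92 in the hearts and 6.21 to 8.33 in the muscles. Adipoq, the adiponectin of fat cells, had levels of -1.74, -0.64 and -2.94 in heart and of 3.98, 3.53 and 2.48 in muscle, a difference of -5.10 (SE 0.34, adjusted p = 0.00085). Muscle D was the highest and muscle F the lowest. Tendon markers were higher in muscle for 7 of 8, such as Tnmd, the tenomodulin, by -3.90 (SE 0.46, with 1 of 3 hearts above background), and satellite cell markers for 6 of 7 tested, with Calcr at least 5.01-fold and Pax7 by -2.75 (SE 0.29, with 1 of 3 hearts above background). Some of these tendon and satellite markers entered the test only through the muscles. Of the 5 tendon markers above background on all 6 arrays 4 were higher in muscle. Of the 3 such satellite markers 2 were higher in muscle and 1 in heart. The satellite marker that went to heart was Vcam1 (2.27, SE 0.20), which endothelium also makes. Schwann cell markers went both ways, with 4 of 10 tested higher in muscle, among them the myelin gene Prx at -3.88 (SE 0.19), and 2 higher in heart, Gfra3 at 1.75 (SE 0.15) and Cdh19 at 1.27 (SE 0.15).

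Fibroblast markers were higher in heart for 4 of 11 (2 without mouse F) and in muscle for 0, with summed levels of 7.99 to 8.18 in the hearts and of 9.44, 7.13 and 7.91 in muscles D, E and F. Smooth muscle and pericyte markers were higher in heart for 5 of 11 (3 without mouse D and 2 without mouse E), and endocardium markers for 0 of 5, with Nfatc1 higher in muscle (-2.14, SE 0.16). Ventricular markers were higher in heart for 4 of 6 (2 without mouse F), the remaining members being Myh7 and Myl3, which slow fibres also make. Lymphocyte markers went 1 each way of 7 tested, with Cd79b, a B cell receptor chain, at 1.76 (SE 0.25) and Nkg7 at -1.01 (SE 0.20), which was 0.16 and did not pass as the mean over its probes. Brown fat markers passed towards heart for 3 of 3 tested, Cox7a1, Ppara and Cidea, while Ucp1, the defining one, was not tested. Without mouse E or without mouse F 1 passed towards heart. With no filter on dim probes 6 were tested, and 1 passed towards heart and 0 towards muscle, with a median of 0.15 against 1.63. The mean level of all 6 was -0.48, -0.59 and -0.10 in hearts D, E and F and 1.68, -0.34 and -1.20 in their muscles. Cox7a1 and Ppara are genes of heart muscle too. Lists for tissues outside the samples were mostly not tested, for want of signal on every array of a tissue. Tested were 2 of 8 lung genes (0 higher in heart and 1 in muscle) and 3 of 8 mammary epithelium genes (0 and 3). Of 8 liver genes 4 were tested (3 and 1, or 1 and 2 without mouse D and 1 and 1 without mouse F). With no filter on dim probes the lung genes gave 0 and 3, the mammary genes 1 and 5, and the liver genes 2 and 4. The liver median was then -1.58 against 2.08. The summed level of the liver list was 1.45, 2.48 and 1.89 in hearts D, E and F and 4.195, 2.59 and 2.35 in their muscles.

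**Figure D4:**
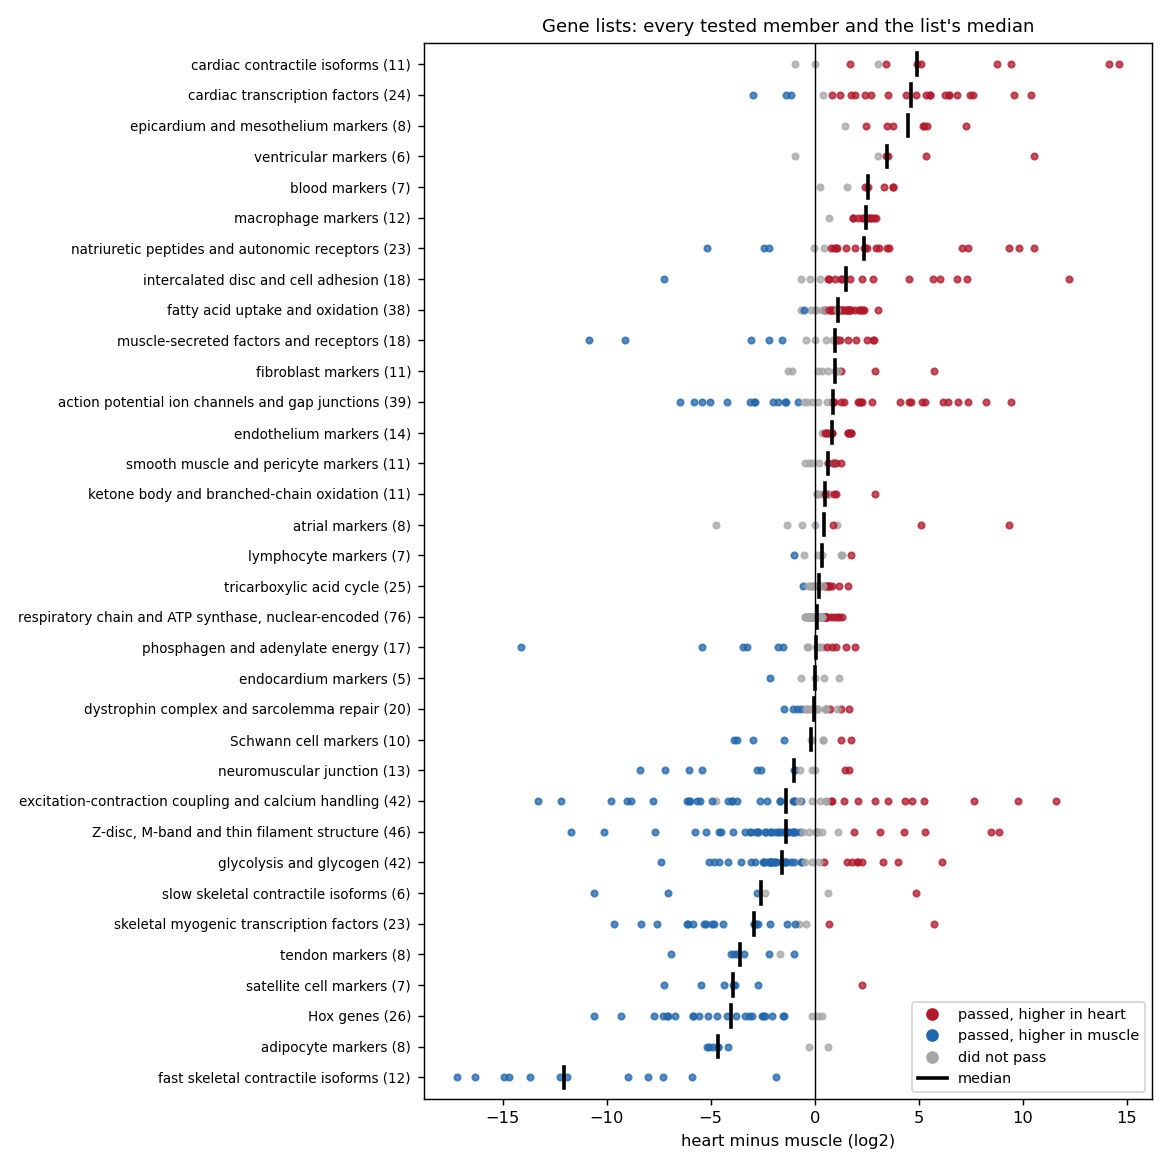
Heart minus muscle difference (log2) of every tested member of each list with at least 5 tested genes, ordered by the list's median (black bar), with the number tested in brackets. Red members passed as higher in heart, blue members as higher in muscle and grey members did not pass, and the fast contractile list lies farthest to the left with a median of -12.07. The cardiac contractile list lies at the right with 4.94, but below the cardiac factors with limits (4.28 against 4.63) and without mouse E (3.07 against 4.76).

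The same comparison in the KI mice used arrays that share none with the WT comparison. Their layout was the same, with KI hearts A and B on slide 2 and KI heart C with all the KI muscles on slide 3. The agreement between the genotypes therefore cannot tell tissue from slide. There 39.9% of 15041 tested genes passed. Of 7846 genes that passed in WT mice and were tested in KI mice, 7808 had the same sign, 5481 passed with that sign and 0 passed with the opposite sign. Of 835 with a WT difference of at least 3, 835 had the same sign and 828 passed. The fast contractile genes passed towards muscle in KI mice for 12 of 12, the cardiac contractile genes that passed in WT for 7 of 8, the cardiac factors for 19 of 23 and the Hox genes for 21 of 23. The fatty acid genes that passed in WT did so for 18 of 30, the respiratory chain genes for 3 of 12 and the endothelium markers for 5 of 13. Myh6 differed by 8.11 in KI mice against 8.76 in WT mice. Whether the tissue difference itself differed between genotypes was tested by the interaction in limma over 15202 genes, of which 0 passed (0%), with 226 at an unadjusted p under 0.05 and 0 also in the unpaired fit. The absence of calls does not show that the genotypes were alike.

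**Figure D5:**
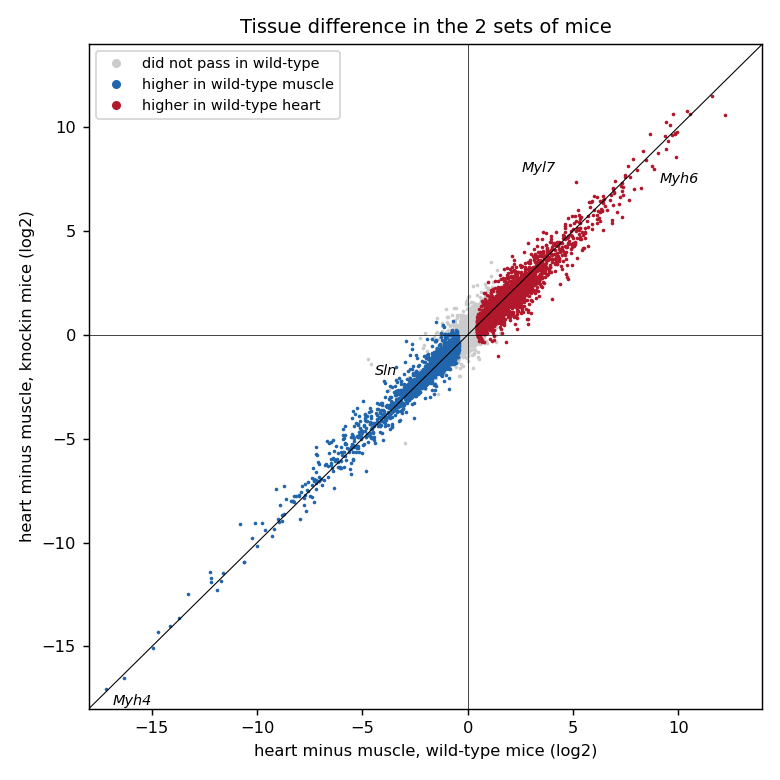
Heart minus muscle difference (log2) of each gene in WT mice D, E and F (horizontal) against KI mice A, B and C (vertical), with the line of equality, in red or blue where the gene passed in WT mice as higher in heart or muscle and in grey where it did not. Genes far from 0 lie near the line with the same sign, and Sln lies off it.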

How the data were processed

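RNA from heart and muscle was isolated with a Qiagen RNeasy fibrous tissue kit, labelled with Cy3 and hybridised to 1-colour Agilent arrays of 62976 spots, 1 array per tissue and mouse. The deposited intensity values were made by the authors with Agilent Feature Extraction 12.0.3.1 (from the file headers and the submitters' processing notes), which subtracts background and does not scale arrays to each other. The deposited value table holds a score, the z-score of the log signal within each array that the authors computed, and served only as an alternative. No spot was saturated on the arrays used, and no count depth exists for arrays, so their number limits the precision.

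Control and outlier spots were left out, spots of a probe were averaged, and log2 processed intensity minus the array's 75th percentile was taken as the level. Of 55681 probes, 28331 had a gene symbol, and each of 21368 genes was represented by its brightest probe on average across the 24 arrays. Some symbols are old, and 46 of 2092 genes that passed with several tested probes had a probe of the opposite sign past 1. The paired fit used limma 3.58.1 under R 4.3.3 (lmFit with the mouse as a block, eBayes, two-sided, Benjamini-Hochberg over all genes tested). In 25 tested genes 1 array had no value and the fit used the others. Each animal gave both a heart and a muscle array, which is the basis of the pairing, and their deviations from the tissue means correlated by 0.01, 0.03 and -0.09 in mice D, E and F. The p-values rest on the spread of the heart minus muscle difference between 3 mice, with each gene's variance drawn towards that of all genes. KI arrays were fitted alone, and the interaction on 12 arrays.

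Genes named in the text were Myh6, Myh4, the counterparts, the 10 genes with the largest difference and the 10 with the largest limit in each direction, and the 3 members of each list with the largest difference in each direction. Other members were added after their values were seen, and a few genes that the rule names are not reported here. Members and lists were chosen with earlier results of these data known. A summed level is the log2 of the summed linear levels of a list. The fit was tested on simulated data. Alternatives were the unpaired fit, quantile scaling, normexp background correction on the median signal (offset 50), the deposited table, other filters and probe rules, more arrays, slide as a block, array weights and leaving out each mouse.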

Additional observations from a re-analysis of the deposited data

How the results depend on the processing

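Without the replicate block (unpaired) 8875 genes passed in place of 7919, of which 7758 were among the paired calls with the same sign, and leaving out 1 mouse gave 5122 to 5982. Counting every array feature gave 14433, and asking also for a difference of at least 1 gave 4678. In KI mice the unpaired fit gave 6148 genes against 6003 with the block, and leaving out 1 mouse gave 2602 (without mouse C) to 5529, with 3064 without mouse A. The interaction gave 0 with and without the block. Quantile scaling moved the median over all genes by 0.11 and normexp correction by -0.11, and 288 calls had the other sign under normexp. With slide as a block 5774 genes passed, 2 of the original calls with the other sign, and fewer list members were higher in heart, 5 of 11 cardiac contractile genes, 6 of 12 macrophage, 3 of 11 smooth muscle (with 2 in muscle), 2 of 11 fibroblast and 1 of 8 atrial markers. Of 38 lists, 34 to 38 kept the sign of their median under each alternative, and those that turned had medians near 0 or few members, the atrial (-0.02 without mouse E), dystrophin, endocardium, liver, lung, lymphocyte, phosphagen, Schwann and respiratory lists. A turn of a single gene was counted only where it passed in the main fit or in the alternative. A gene that passed in neither counted as unchanged whatever its sign. There were 3742 values of 272 single genes under 14 alternatives. Of these, 3535 stayed on their side of the threshold and kept direction where they passed. A further 180 no longer passed, 19 passed newly and 8 turned. These 8 were Cs (0.48, quantile scaling), Msc (-0.50, normexp), Ttr (-0.082, normexp, from 1.68), Hcn2 (0.29), Nkg7 (0.16), Slc8a3 (-0.63) and Tpm3 (-3.47) as means over probes, and Myl4 (-2.02 without mouse E to 1.02 without mouse D). The cause of these changes was not tested. Signal over background limits every gene given only as a lower limit.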

Other observations

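The muscle of mouse D stood apart in genes of bone and of neutrophils, chosen after their values were seen. Bglap2, an osteocalcin gene with near-identical copies, had levels of 5.51 in muscle D, -4.02 in muscle E and -0.95 in muscle F. S100a9, a calgranulin of neutrophils, had 5.85, -1.54 and -1.10 in the same order, and Camp, the cathelicidin of neutrophil granules, had 4.28, -2.75 and -3.21. Col1a1, the main collagen of bone and tendon, had 7.06, 3.37 and 4.08. None of Bglap2, S100a9 and Camp passed between heart and muscle.

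In the heart, Angptl4, an inhibitor of lipoprotein lipase that fasting raises, had levels of 2.94, 0.27 and 3.70 in mice D, E and F, and Pdk4 was also lowest in mouse E in both tissues.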
